A study of Mus musculus with 20 samples.

Results

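Antigen-presenting cells carry surface molecules that raise or restrain the response of a T cell, and 10 of their genes are described here in mouse macrophages exposed to airway fluid. They are Cd274, Pdcd1lg2, Cd80, Cd86, Cd40, Icosl, Cd69, Cd38, Fgl2 and Vsir. The 10 were taken by gene symbol from a table that lists 78409 genes, of which 34373 had at least 1 count in at least 1 library, and each symbol matched 1 row.

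All libraries came from wild-type bone marrow-derived macrophages (BMDMs) of female C57BL/6J mice, grown with medium conditioned by L929 fibroblasts and used on day 7 of culture, then moved to Opti-MEM with no serum. The 5 groups of 4 libraries differed in what was added. PBS was the control. RNY1+/+ EVFx and RNY1-/- EVFx were fractions enriched for extracellular vesicles (EVs), separated by size from the bronchoalveolar lavage fluid (BALF) of mice with ovalbumin (OVA)-induced airway inflammation that carried or lacked RNY1, a gene for a small noncoding Y RNA deleted by CRISPR. RNY1+/+ ProteinFx and RNY1-/- ProteinFx were the protein-enriched fractions of the same fluids. EVFx was given at 35000000 particles per µL and ProteinFx at 0.75 µg protein per µL, both after 5 days at 4 °C, so the fractions were dosed by different measures. The deletion was in the mice that gave the fluid and not in the macrophages, so the libraries hold no check of it. Separate wells, fluids or mice are not named for the 4 libraries within a group, and p-values measure only the spread between these libraries, which may be technical. All 20 libraries carry the same batch label. The fluids came from inflamed airways in both genotypes, and no fluid of unchallenged mice was among these libraries.

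A T cell needs a signal through its antigen receptor and a second signal from costimulatory ligands on the presenting cell. CD80 and CD86, members of the B7 family, engage CD28 to activate the T cell and CTLA-4 to restrain it, while the PD-1 ligands PD-L1 and PD-L2 and the B7 relative VISTA restrain it. In macrophages these genes are known to respond to interferons, to ligands of Toll-like receptors and to cytokines such as interleukin-4, and CD40 on the macrophage receives help from T cells that carry CD40 ligand.

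The 250 bases before the RefSeq transcription start were available for 7 of the 10 genes (RefSeq, GRCm38.p6, each + strand) and were searched on both strands for 4 short motifs. The 4 printed here belong to 3 genes that rose in every fraction group and to the 1 gene that fell, in the results that follow. Capitals mark the matches, and lower case marks the rest.
Cd274, chr19:29367188-29367437: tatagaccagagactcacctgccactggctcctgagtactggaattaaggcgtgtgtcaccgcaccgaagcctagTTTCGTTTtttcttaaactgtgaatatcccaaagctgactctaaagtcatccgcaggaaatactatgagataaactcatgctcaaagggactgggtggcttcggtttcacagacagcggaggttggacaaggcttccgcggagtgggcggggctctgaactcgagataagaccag
Cd38, chr5:43868559-43868808: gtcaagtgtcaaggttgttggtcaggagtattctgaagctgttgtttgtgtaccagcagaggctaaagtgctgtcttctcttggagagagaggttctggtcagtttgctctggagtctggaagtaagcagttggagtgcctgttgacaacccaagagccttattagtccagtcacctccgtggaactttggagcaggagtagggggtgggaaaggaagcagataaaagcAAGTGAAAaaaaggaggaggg
Fgl2, chr5:21372423-21372672: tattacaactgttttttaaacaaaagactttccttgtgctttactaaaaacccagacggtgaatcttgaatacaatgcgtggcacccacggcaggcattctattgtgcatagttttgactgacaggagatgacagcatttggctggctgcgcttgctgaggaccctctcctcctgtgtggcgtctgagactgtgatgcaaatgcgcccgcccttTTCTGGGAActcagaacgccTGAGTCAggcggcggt
Vsir, chr10:60346601-60346850: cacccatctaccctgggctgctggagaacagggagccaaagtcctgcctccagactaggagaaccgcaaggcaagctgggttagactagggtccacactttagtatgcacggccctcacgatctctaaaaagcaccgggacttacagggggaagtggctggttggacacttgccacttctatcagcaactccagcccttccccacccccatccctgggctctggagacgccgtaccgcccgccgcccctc

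The letters AANNGAAA, the core that interferon regulatory factors bind, stood in 3 of the 7 promoters, at -21 to -14 from the start in Cd38, -175 to -168 in Cd274 and -35 to -28 in Pdcd1lg2. They stood in 21.3% of 32851 promoters of the same length. TTCNNNGAA, the form of a gamma-activated site, stood at -36 to -28 in Fgl2 and in 7.02% of promoters. TGANTCA, an AP-1 motif, stood at -16 to -10 in Fgl2, at -42 to -36 in Cd80 and in 6.75% of promoters. The longer interferon-stimulated response element, GAAA followed by any 2 bases and GAAA, which contains the core, was in none of the 7 windows and in 2.98% of promoters. Vsir and Icosl held none of the 4 motifs in these windows. A match of letters is a description of the sequence only.

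The macrophage label was checked against marker genes. All 10 macrophage markers were present in every group, summing to between 8821 and 14210 CPM per library, where CPM is the authors' count scaled to the library total. Of 9 dendritic cell markers, 6 were at or under 3 counts in every library, Flt3, Zbtb46, Xcr1, Clec9a, Cd209a and Dpp4, and the list summed to 12.7 to 17.97 CPM in PBS and to 3.87 to 21.9 CPM in the fraction groups. The rest of that list were Itgax, at 2.98 to 19.5 CPM over the 20 libraries, and Ccr7 and Siglech, which reached 12 and 4 counts. B cell markers summed to 4.34 CPM at most. Neutrophil markers summed to 282 to 333 CPM in PBS and to 143 to 354 CPM in the fraction groups. Over the 20 libraries S100a8 was 91.0 to 209 CPM and S100a9 47.5 to 141 CPM, while Ly6g, Elane and Mpo were at or under 3 counts throughout. Eosinophil markers summed to 7.17 to 13.5 CPM in PBS, 0.801 to 2.46 CPM in the EVFx groups and 12.5 to 21.1 CPM in the ProteinFx groups. Of these, Ccr3 was 0.751 to 19.1 CPM over the 20 libraries and Epx was 0 throughout. Epithelial markers summed to 15.9 CPM at most. Whether the cells or fluids behind these other markers have a part in the results was not tested. Total counts per library ranged from 2510005 to 8277366. The RNY1-/- ProteinFx libraries were also taken in pairs, replicates 1 and 2 and replicates 3 and 4. In CPM, the pairs did not overlap for Vsir, Fgl2, Cd69, Cd80 and Pdcd1lg2. They did overlap for Cd274, Cd86, Cd40, Cd38 and Icosl. Results of the 10 genes that rest on that group are given without either pair where this changed them. For genes outside the 10, Cd28 among them, dependence on a pair or on 1 library was not examined.

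Against PBS, most of the genes moved the same way in all 4 fraction groups. A gene was called when edgeR's quasi-likelihood test gave a Benjamini-Hochberg adjusted p under 0.05 over all genes tested and the absolute log2 fold change was above 1. Icosl and Pdcd1lg2 were too low for the filter in these comparisons, which left 8 of the 10 genes tested. In RNY1+/+ EVFx, 5 were higher than in PBS and 1 was lower, where 8.24% and 8.2% of all genes tested were called higher and lower. In RNY1-/- EVFx, 6 were higher and 1 was lower, against 9.02% and 13.5% of all genes. In RNY1+/+ ProteinFx, 6 were higher and 1 was lower, against 8.96% and 12.4%. In RNY1-/- ProteinFx, 6 were higher and 0 were lower, against 6.31% and 7.99%. The median log2 fold change of the 8 genes was 3.48 in RNY1+/+ EVFx, 3.47 in RNY1-/- EVFx, 3.27 in RNY1+/+ ProteinFx and 2.73 in RNY1-/- ProteinFx, beside -0.03 for all genes tested in each. The 4 comparisons use the same 4 PBS libraries, so they are not independent of each other.

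**Figure D1:**
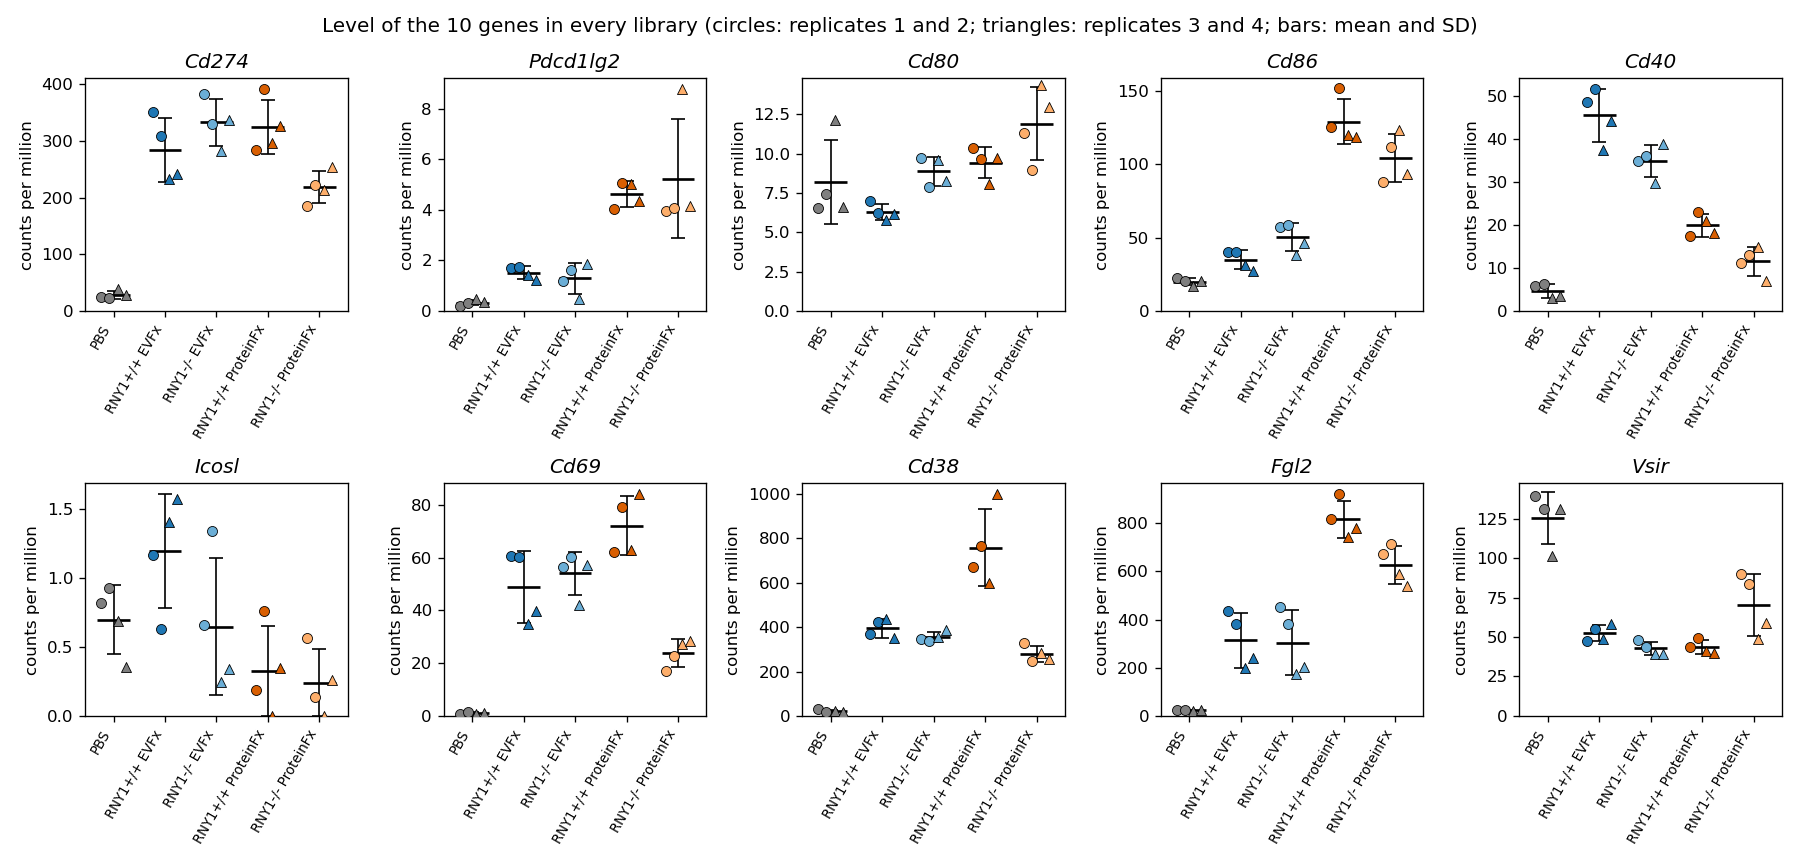
Level of each of the 10 genes (vertical axes, CPM, linear and starting at 0) in every library of the 5 groups (horizontal axes). Circles are replicates 1 and 2, triangles are replicates 3 and 4, and bars are the mean and SD of 4 libraries. Cd69 averages 0.984 CPM in PBS and 23.9 CPM or more in each fraction group, Vsir is highest in PBS, and Fgl2 splits by replicate number in both EVFx groups.

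**Figure D2:**
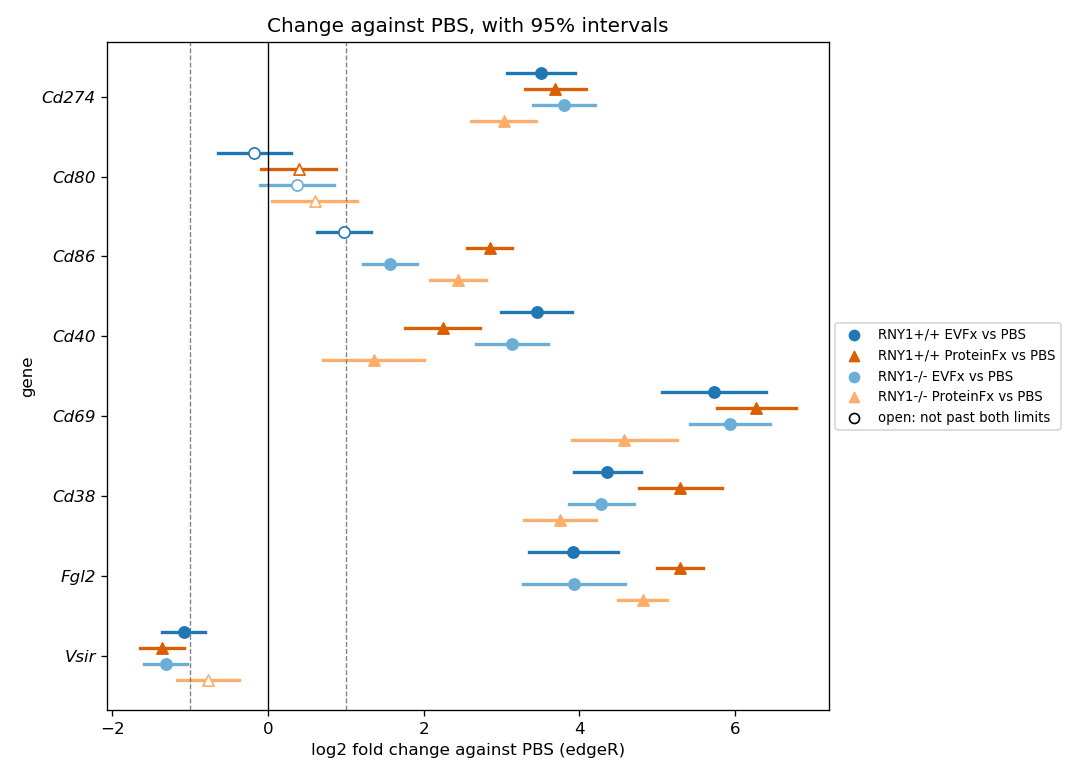
Log2 fold change against PBS (horizontal axis) of the 8 genes tested (vertical axis) in the 4 fraction groups, with 95% intervals from edgeR. Filled symbols passed both limits, and dashed lines mark a log2 fold change of 1 either way. Cd69 reaches 6.27 in RNY1+/+ ProteinFx, Cd80 lies between -0.18 in RNY1+/+ EVFx and 0.60 in RNY1-/- ProteinFx, and Vsir lies below 0 in all 4.

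Cd274 encodes PD-L1, the ligand that restrains T cells through PD-1. Its level in PBS was 24.2, 22.9, 38.4 and 27.9 CPM in replicates 1 to 4. With RNY1+/+ EVFx it was 351, 309, 234 and 241 CPM, and with RNY1-/- EVFx 384, 330.3, 282 and 336 CPM. Every library of either EVFx group was above every PBS library. With RNY1+/+ ProteinFx it was 284, 392, 297 and 326 CPM, and with RNY1-/- ProteinFx 185, 223, 214 and 254 CPM. The rise over PBS was called in all 4, with a log2 fold change of 3.51 (standard error 0.20, edgeR adjusted p = 1.76e-07) in RNY1+/+ EVFx and 3.80 in RNY1-/- EVFx. It was 3.69 in RNY1+/+ ProteinFx and 3.03 in RNY1-/- ProteinFx, from 8.16-fold to 13.97-fold over the 4 groups. By mean CPM, the order was RNY1-/- EVFx, RNY1+/+ ProteinFx, RNY1+/+ EVFx, RNY1-/- ProteinFx and PBS, and the ranges of neighbours overlapped except for the last step down to PBS.

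Pdcd1lg2 encodes PD-L2, the other PD-1 ligand, and was scarce. PBS libraries held 1, 2, 2 and 2 counts, or 7 in all, which is at or under the floor of 3 counts in each. RNY1+/+ EVFx libraries held 13, 14, 7 and 10 counts and RNY1-/- EVFx libraries 9, 11, 2 and 11. The ProteinFx groups held 21, 20, 20 and 25 counts with RNY1+/+ and 21, 29, 22 and 16 with RNY1-/-. The ProteinFx libraries were the highest of the 20 in CPM, from 3.97 to 8.77, where EVFx libraries reached 1.85. Pooled over a group's libraries, the CPM ratio to PBS was 4.63 in RNY1+/+ EVFx (95% interval 2.07 to 12.2), 4.14 in RNY1-/- EVFx (1.799 to 11.1), 13.9 in RNY1+/+ ProteinFx (6.45 to 35.5) and 14.3 in RNY1-/- ProteinFx (6.64 to 36.5). These are exact intervals on pooled counts that cover counting error only. Without the 3 CPM limit, Pdcd1lg2 was called higher than PBS with both ProteinFx, at 3.88 in each (edgeR adjusted p = 1.32e-06 with RNY1+/+ and 0.000101 with RNY1-/-). With no filter at all it was also called higher with RNY1+/+ EVFx (2.37, edgeR adjusted p = 0.000135) and RNY1-/- EVFx (2.19, edgeR adjusted p = 0.00117).

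Cd86, which encodes a B7 ligand of CD28 and CTLA-4, rose further with ProteinFx than with EVFx. PBS libraries had 22.8, 20.4, 16.7 and 20.3 CPM. RNY1+/+ EVFx libraries had 40.4, 40.0, 31.6 and 27.3 CPM and RNY1-/- EVFx libraries 57.4, 58.7, 38.2 and 46.5 CPM. RNY1+/+ ProteinFx libraries had 125, 152, 120.1 and 118 CPM and RNY1-/- ProteinFx libraries 88.1, 112, 123 and 93.4 CPM. No library of a fraction group was as low as a PBS library, and the ProteinFx libraries all lay above the EVFx libraries. The log2 fold change over PBS was 2.85 in RNY1+/+ ProteinFx (standard error 0.13, edgeR adjusted p = 1.48e-08), 2.44 in RNY1-/- ProteinFx and 1.57 in RNY1-/- EVFx, all called. In RNY1+/+ EVFx it was 0.97 (standard error 0.16, edgeR adjusted p = 0.000478), just under the fold limit, and passed it without PBS replicate 1 (1.04), RNY1+/+ EVFx replicate 3 (1.02) or replicate 4 (1.08). The same fold also passed with counts thinned to the smallest library (1.30) and with no filter on low counts (1.03).

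Cd80, the other B7 ligand of CD28 and CTLA-4, did not follow Cd86. It measured 6.56, 7.42, 12.1 and 6.58 CPM in PBS, and group means with the fractions were 6.30 ± 0.492 CPM in RNY1+/+ EVFx, 8.87 ± 0.932 in RNY1-/- EVFx, 9.43 ± 0.978 in RNY1+/+ ProteinFx and 11.9 ± 2.32 in RNY1-/- ProteinFx (SD, n = 4). The ranges of neighbouring groups overlapped at every step, with PBS between both EVFx groups. No change against PBS passed the test, and the 95% interval of the log2 fold change was -0.65 to 0.29 in RNY1+/+ EVFx, -0.10 to 0.84 in RNY1-/- EVFx, -0.08 to 0.88 in RNY1+/+ ProteinFx and 0.05 to 1.15 in RNY1-/- ProteinFx. PBS replicate 3 was the highest PBS library. Without it, the log2 fold change in RNY1+/+ EVFx was 0.05 in place of -0.18. In the other groups, fits that left 1 library out reached 0.63 in RNY1+/+ ProteinFx, 0.62 in RNY1-/- EVFx and 0.81 in RNY1-/- ProteinFx, all under the fold limit. Cd80 was the 1 gene of the 8 tested that passed neither limit in any comparison with PBS.

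Icosl encodes the ligand of ICOS, a CD28 relative on activated T cells. It had 0 to 13 counts per library and 0 to 1.57 CPM. The pooled counts were 15 in PBS, 34 in RNY1+/+ EVFx, 17 in RNY1-/- EVFx, 6 in RNY1+/+ ProteinFx and 5 in RNY1-/- ProteinFx. The pooled CPM ratio of RNY1+/+ ProteinFx to RNY1+/+ EVFx was 0.271 (95% interval 0.0929 to 0.652, counting error only), while all 4 intervals against PBS included 1. Ranges of neighbouring groups overlapped throughout, and every ProteinFx library was at or under the floor of 3 counts.

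Cd40 encodes the receptor through which T cells with CD40 ligand activate macrophages, and its order differed from that of Cd86. PBS libraries had 5.74, 6.18, 2.97 and 3.56 CPM. With RNY1+/+ EVFx Cd40 was 48.6, 51.5, 37.3 and 44.1 CPM, and with RNY1-/- EVFx 34.9, 36.04, 29.8 and 38.7 CPM. With RNY1+/+ ProteinFx it was 17.4, 23.1, 20.9 and 18.04 CPM, and with RNY1-/- ProteinFx 11.2, 13.01, 14.9 and 7.00 CPM. The EVFx libraries were the highest, and the ranges overlapped only between the 2 EVFx groups. The log2 fold change over PBS was 3.45 in RNY1+/+ EVFx (standard error 0.21, edgeR adjusted p = 2.68e-07), 3.14 in RNY1-/- EVFx, 2.24 in RNY1+/+ ProteinFx and 1.36 in RNY1-/- ProteinFx. All 4 were called, and the last was not with counts thinned to the smallest library (0.91, edgeR adjusted p = 0.0825).

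Cd69 encodes an early activation receptor best known from lymphocytes, and its PBS level was near the floor. PBS libraries held 3, 9, 3 and 7 counts, or 0.615, 1.39, 0.686 and 1.25 CPM. With RNY1+/+ EVFx it was 60.5, 60.4, 34.8 and 39.9 CPM, and with RNY1-/- EVFx 56.6, 60.2, 42.1 and 57.2 CPM. With RNY1+/+ ProteinFx it was 62.2, 79.3, 63.1 and 84.0 CPM, and with RNY1-/- ProteinFx 17, 22.8, 27.1 and 28.5 CPM. RNY1-/- ProteinFx was the lowest of the fraction groups, and none of its libraries overlapped with those of another group. The log2 fold change over PBS was 5.73 in RNY1+/+ EVFx (standard error 0.30, edgeR adjusted p = 9.77e-08), 5.93 in RNY1-/- EVFx and 6.27 in RNY1+/+ ProteinFx. It was 4.57 in RNY1-/- ProteinFx, and all 4 were called. Cd69 passed the 3 CPM filter against PBS only through the fraction groups, where it was high. The size of the fold moved with the processing, from 5.55 to 7.21 in RNY1+/+ EVFx, 5.52 to 7.44 in RNY1-/- EVFx, 5.77 to 7.77 in RNY1+/+ ProteinFx and 4.09 to 6.20 in RNY1-/- ProteinFx, each highest with counts thinned to the smallest library. All 16 fraction libraries were above all PBS libraries.

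Cd38 encodes an enzyme on the cell surface that consumes NAD and feeds the extracellular adenosine route. Its PBS level was 30.1, 18.5, 23.1 and 15.7 CPM. It was 369, 424, 435 and 349 CPM with RNY1+/+ EVFx and 348, 336, 356 and 389 CPM with RNY1-/- EVFx. It was 669.9, 766, 598 and 997 CPM with RNY1+/+ ProteinFx and 329.7, 247, 284 and 258 CPM with RNY1-/- ProteinFx. RNY1+/+ ProteinFx stood above all other groups and RNY1-/- ProteinFx below the other fraction groups, with no overlap at either step. The rise over PBS was called in all 4, at 4.36 in RNY1+/+ EVFx (standard error 0.20, edgeR adjusted p = 3.73e-08), 4.28 in RNY1-/- EVFx, 5.30 in RNY1+/+ ProteinFx and 3.75 in RNY1-/- ProteinFx.

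Fgl2 encodes a fibrinogen-like protein, membrane-bound on macrophages as a prothrombinase and secreted as a suppressor of T cells. PBS libraries had 23.2, 26.3, 19.7 and 24.0 CPM. RNY1+/+ EVFx libraries had 435, 381, 197 and 239.6 CPM, and RNY1-/- EVFx libraries 453, 382, 175 and 204 CPM. In both EVFx groups replicates 1 and 2 were above replicates 3 and 4 without overlap, and the labels give no reason for the split. RNY1+/+ ProteinFx libraries had 817, 919.6, 744 and 781 CPM, and RNY1-/- ProteinFx libraries 671, 712, 589 and 538 CPM. The ProteinFx groups lay above both EVFx groups, and RNY1+/+ above RNY1-/-, without overlap. The log2 fold change over PBS was 5.29 in RNY1+/+ ProteinFx (standard error 0.14, edgeR adjusted p = 2.34e-10), 4.81 in RNY1-/- ProteinFx, 3.92 in RNY1+/+ EVFx and 3.94 in RNY1-/- EVFx, all called.

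Vsir encodes VISTA, a B7 relative that restrains T cells, and was the member that fell. PBS libraries had 139, 131, 102 and 131 CPM. RNY1+/+ EVFx libraries had 47.6, 55.3, 48.5 and 58.5 CPM, RNY1-/- EVFx libraries 48.4, 43.8, 39.4 and 39.5 CPM, and RNY1+/+ ProteinFx libraries 43.8, 49.6, 41.2 and 39.7 CPM. RNY1-/- ProteinFx libraries had 90.1, 83.6, 48.6 and 58.9 CPM. Every fraction library was below every PBS library, and the RNY1-/- ProteinFx pairs did not meet. The fall from PBS was called at -1.08 in RNY1+/+ EVFx (standard error 0.12, edgeR adjusted p = 3.39e-05), -1.31 in RNY1-/- EVFx and -1.36 in RNY1+/+ ProteinFx. In RNY1-/- ProteinFx it was -0.77 (standard error 0.18, edgeR adjusted p = 0.00949), past the p limit and not the fold limit. Without replicates 1 and 2 of that group it was -1.09 (edgeR adjusted p = 0.00351), and without replicates 3 and 4 it was -0.51 (edgeR adjusted p = 0.0728).

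Does the RNY1 genotype of the fluid matter for these genes? With EVFx, none of the 8 genes tested was called between RNY1-/- and RNY1+/+, where 2.35% of all genes were. By the adjusted p alone, 3 of 8 passed, where 52.1% of all genes did. Cd86 was higher with RNY1-/- EVFx by 0.61 on the log2 scale (standard error 0.14, edgeR adjusted p = 0.00403) and Cd80 by 0.55 (standard error 0.14, edgeR adjusted p = 0.00630). Cd40 was lower, with a log2 fold change of -0.31 (standard error 0.11, edgeR adjusted p = 0.0319). The 95% intervals of the other 5 were 0.02 to 0.58 for Cd274, -0.15 to 0.57 for Cd69, -0.26 to 0.12 for Cd38, -0.60 to 0.64 for Fgl2 and -0.42 to -0.03 for Vsir. With trends of transcript GC content and length removed, Cd86 was 0.39 (edgeR adjusted p = 0.0366), Cd80 was 0.30 (edgeR adjusted p = 0.111) and Cd274 was 0.12 (edgeR adjusted p = 0.456), while Cd69 turned to -0.30 and Cd38 to -0.38, the last with an edgeR adjusted p of 0.00161. The Cd40 difference had an edgeR adjusted p of 0.0588 to 0.0857 when RNY1+/+ EVFx replicate 1 or 2, or RNY1-/- EVFx replicate 1, 2 or 3, was left out.

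With ProteinFx, Cd69 and Cd38 were called lower with RNY1-/- than with RNY1+/+, 2 of 9 genes tested where 1.17% of all genes were called lower, and 0 of 9 were called higher, where 0.659% of all genes were. Cd69 averaged 23.9 ± 5.18 CPM with RNY1-/- ProteinFx against 72.1 ± 11.1 CPM with RNY1+/+ ProteinFx (SD, n = 4), with a log2 fold change of -1.71 (standard error 0.18, edgeR adjusted p = 0.000194). Cd38 averaged 279.7 ± 36.8 CPM against 758 ± 174 CPM, with a log2 fold change of -1.53 (standard error 0.16, edgeR adjusted p = 0.000196). Both remained called when any 1 library or either RNY1-/- pair was left out, with Cd69 at -1.41 without replicates 1 and 2 and -1.98 without replicates 3 and 4. By the adjusted p alone, 6 of 9 passed, where 5.57% of all genes did.

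The other 4 of those 6 differences between the ProteinFx genotypes were under the fold limit. Cd40 was -0.87 (standard error 0.19, edgeR adjusted p = 0.0188), Cd274 was -0.65 (standard error 0.14, edgeR adjusted p = 0.0148) and Fgl2 was -0.47 (standard error 0.11, edgeR adjusted p = 0.0249), each without overlap between the groups. Vsir was 0.62 (standard error 0.16, edgeR adjusted p = 0.0421). Vsir rested on replicates 1 and 2 of RNY1-/- ProteinFx, since without them it was 0.28 (edgeR adjusted p = 0.207). Leaving out 1 library took Vsir to an adjusted p of up to 0.156, without RNY1+/+ ProteinFx replicate 4. Fgl2 reached 0.0905 without RNY1+/+ ProteinFx replicate 2, Cd40 0.0585 without the same library, and Cd274 0.0583 without RNY1+/+ ProteinFx replicate 4. In 1 fit of all 20 libraries the adjusted p of Fgl2 was 0.276, and with thinned counts that of Cd40 was 0.09995 and that of Vsir 0.0998. Cd86 was -0.40 (95% interval -0.68 to -0.11), Cd80 0.20 (-0.21 to 0.61) and Pdcd1lg2 -0.00064 (-0.45 to 0.45), none past the test.

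**Figure D3:**
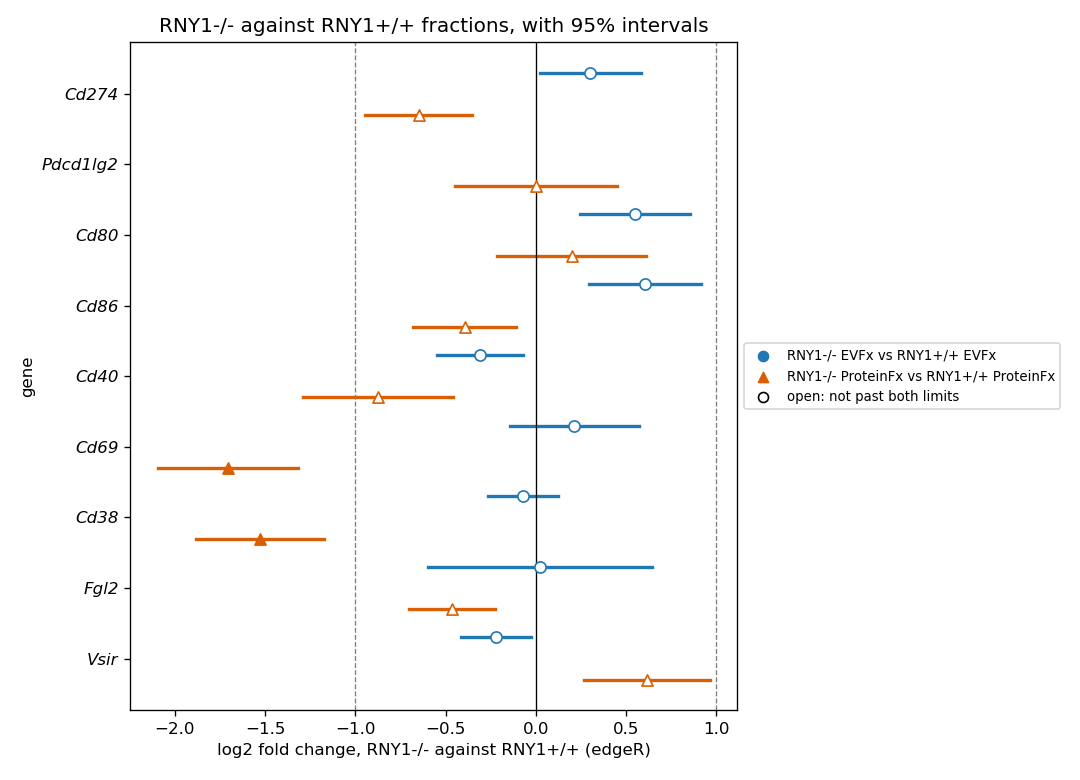
Log2 fold change of RNY1-/- against RNY1+/+ (horizontal axis) for 9 genes (vertical axis), with circles for EVFx and triangles for ProteinFx, and 95% intervals from edgeR over 4 libraries a group. Filled symbols passed both limits. Cd69 and Cd38 lie at -1.71 and -1.53 with ProteinFx and near 0 with EVFx, and Pdcd1lg2 was not tested with EVFx.

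The genotype effect differed between the fractions for 5 of 9 genes in an interaction fit over 16 libraries, where 33% of all genes passed at an adjusted p under 0.05. On the log2 scale, the ProteinFx effect minus the EVFx effect was -1.93 for Cd69 (standard error 0.27, edgeR adjusted p = 0.000704), -1.46 for Cd38 (standard error 0.20, edgeR adjusted p = 0.000501), -1.003 for Cd86 (standard error 0.21, edgeR adjusted p = 0.00411), -0.96 for Cd274 (standard error 0.20, edgeR adjusted p = 0.00451) and 0.84 for Vsir (standard error 0.19, edgeR adjusted p = 0.00605). For the first 4 the log2 change from RNY1+/+ to RNY1-/- was lower with ProteinFx than with EVFx, and for Vsir it was higher. This compares genotype effects and not levels between fractions. The Cd86 difference joined an effect of 0.61 with EVFx to 1 of -0.40 with ProteinFx, and the latter did not pass its own test. Vsir no longer passed without RNY1-/- ProteinFx replicates 1 and 2 (0.52, edgeR adjusted p = 0.0697), while Cd69, Cd38, Cd86 and Cd274 passed without either pair. Cd40 was -0.57 (95% interval -1.04 to -0.10, edgeR adjusted p = 0.0580), Fgl2 -0.49 (-1.22 to 0.24), Cd80 -0.36 (-0.84 to 0.12) and Pdcd1lg2 0.09 (-0.84 to 1.02), none of which passed.

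Between the fractions of one genotype, PD-L2 and CD86 transcripts were higher with ProteinFx and CD40 transcripts with EVFx, with the doses set by different measures. With RNY1+/+, 3 of 9 genes were called higher with ProteinFx than with EVFx and 1 lower, where 6.71% and 6.82% of all genes were. Cd86 was 1.88 higher on the log2 scale (standard error 0.12, edgeR adjusted p = 1.19e-08), Pdcd1lg2 1.58 (standard error 0.23, edgeR adjusted p = 2.85e-05) and Fgl2 1.38 (standard error 0.19, edgeR adjusted p = 1.94e-05), while Cd40 was -1.21 (standard error 0.12, edgeR adjusted p = 8.67e-07). Pdcd1lg2 averaged 4.61 CPM with ProteinFx and 1.51 CPM with EVFx, so it passed the 3 CPM filter only through ProteinFx. It was tested in 4 of the 8 fits that left 1 library out. With no filter it was 1.54 (edgeR adjusted p = 1.05e-06). Cd38 was 0.95 (edgeR adjusted p = 4.30e-05), under the fold limit, and it passed that limit without RNY1+/+ ProteinFx replicate 1 (1.009) or replicate 3 (1.05). By the adjusted p alone 8 of 9 passed, where 63.3% of all genes did. The exception was Cd274, whose 95% interval was -0.09 to 0.47. Cd69 was 0.55 (edgeR adjusted p = 0.00846) and turned to -0.07 (edgeR adjusted p = 0.727) with GC content and length trends removed.

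With RNY1-/-, 1 of 9 genes was called higher with ProteinFx than with EVFx and 2 lower, where 4.82% and 4.15% of all genes were. Pdcd1lg2 was 1.66 higher (standard error 0.38, edgeR adjusted p = 0.00550), Cd40 was -1.79 (standard error 0.18, edgeR adjusted p = 1.23e-05) and Cd69 was -1.38 (standard error 0.18, edgeR adjusted p = 8.48e-05). Pdcd1lg2 averaged 5.235 CPM with ProteinFx and 1.29 CPM with EVFx, again past the filter only through ProteinFx. It was tested in 7 of the 8 fits that left 1 library out. With no filter it was 1.65 (edgeR adjusted p = 1.40e-05). By the adjusted p alone 8 of 9 passed, where 29.2% of all genes did. Cd274 was -0.78 and Cd38 -0.53, while Cd86 was 0.87, Fgl2 0.87 and Vsir 0.55, and all 5 were under the fold limit. Fgl2 passed it without RNY1-/- EVFx replicate 1 (1.14) or replicate 2 (1.00), the libraries in which it was high. It no longer passed the p limit without replicate 4 of that group (0.75, edgeR adjusted p = 0.0573) or without RNY1-/- ProteinFx replicates 1 and 2 (0.77, edgeR adjusted p = 0.0627). Vsir reached an edgeR adjusted p of 0.0505 to 0.0562 without RNY1-/- EVFx replicate 3 or 4 or RNY1-/- ProteinFx replicate 1 or 2, and was 0.22 without RNY1-/- ProteinFx replicates 1 and 2 (edgeR adjusted p = 0.191). The 95% interval of Cd80 was -0.20 to 0.61.

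Other costimulatory and checkpoint molecules of presenting cells, a list of 30 genes outside the 10, had 18 or 19 members above the filter in each comparison. In RNY1+/+ EVFx 11 of 19 were called higher than PBS and 2 lower, where 8.24% and 8.2% of all genes were. In RNY1-/- EVFx 6 of 18 were higher and 1 lower (9.02% and 13.5% of all genes), in RNY1+/+ ProteinFx 8 of 19 and 1 (8.96% and 12.4%), and in RNY1-/- ProteinFx 4 of 18 and 0 (6.31% and 7.99%). The median log2 fold changes were 1.24, 0.72, 0.61 and 0.30 in that order, beside -0.03 for all genes in each. Some calls rest on genes that passed the 3 CPM filter only through the group where they were high. These were Slamf1 (0.281 CPM in PBS), called higher with both RNY1+/+ fractions, and Tnfsf15 (1.92 CPM in PBS). Havcr2 passed the filter against both EVFx groups only through PBS. Icam1, the adhesion ligand of LFA-1, averaged 126 ± 16.2 CPM in RNY1+/+ EVFx against 15.7 ± 4.97 CPM in PBS (log2 fold change 3.17, standard error 0.21). It was 72.8 ± 8.36 CPM in RNY1-/- EVFx. Tnfsf15, a TNF family ligand of the receptor DR3, rose in all 4 groups, from 2.36 in RNY1-/- ProteinFx to 3.79 in RNY1-/- EVFx. Havcr2, which encodes the checkpoint receptor TIM-3, fell by 2.92 on the log2 scale in both RNY1+/+ EVFx and RNY1-/- EVFx, from 24.2 ± 1.94 CPM in PBS to 2.85 ± 0.952 and 2.58 ± 1.07 CPM. Cd47, the signal that restrains phagocytosis, rose with ProteinFx, by 1.57 with RNY1+/+ and 1.37 with RNY1-/-.

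Between genotypes, 0 of 18 of the list were called with EVFx, where 2.35% of all genes were. With ProteinFx, 1 of 19 was higher and 3 were lower with RNY1-/-, where 0.659% and 1.17% of all genes were. Those were Havcr2 (1.02, edgeR adjusted p = 0.0351), and Slamf1 (-1.52, edgeR adjusted p = 0.0193), Pilra (-1.38, edgeR adjusted p = 0.00177) and Cd200 (-1.37, edgeR adjusted p = 0.0261). Slamf1 encodes a self-ligand of the SLAM family and Cd200 the ligand of an inhibitory receptor of myeloid cells. Both were low, with a wide spread in RNY1+/+ ProteinFx. Slamf1 averaged 3.26 ± 0.833 CPM with RNY1-/- and 8.4 ± 3.94 CPM with RNY1+/+ ProteinFx. Cd200 averaged 4.01 ± 0.618 and 9.58 ± 4.82 CPM in that order (SD, n = 4), and neither gene's ranges overlapped.

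**Figure D4:**
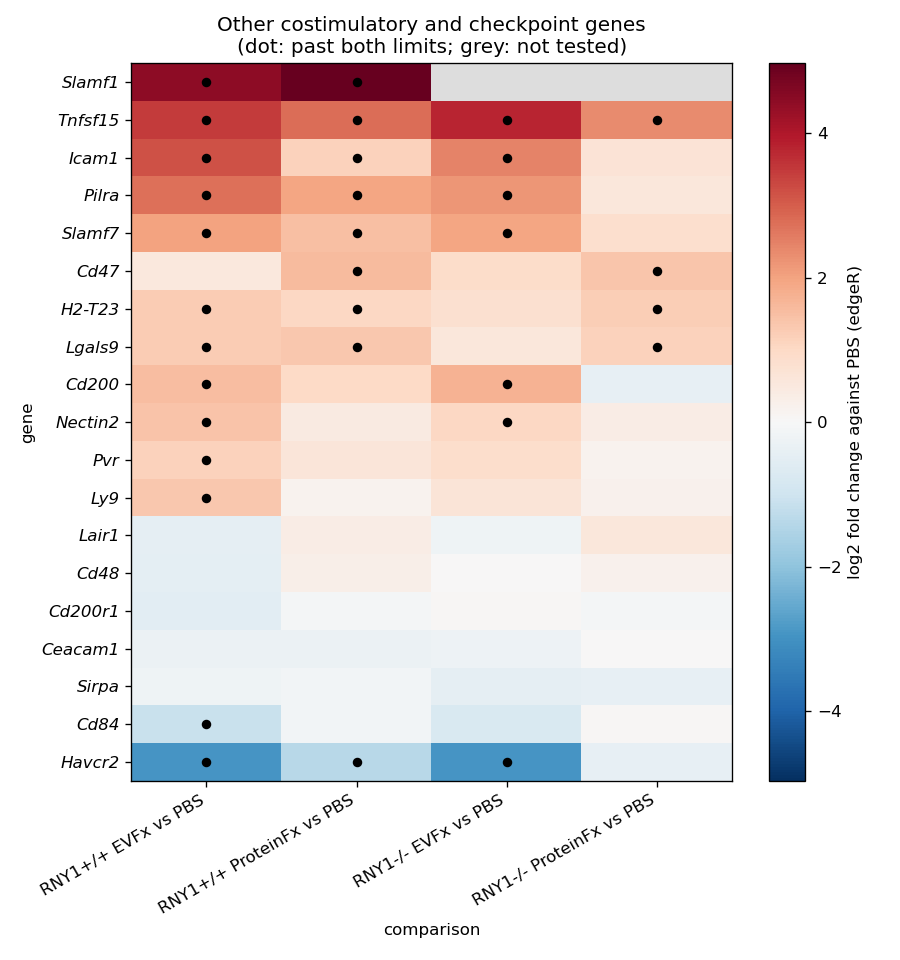
Log2 fold change against PBS (colour scale, edgeR) of the 19 genes of the list that passed the filter (vertical axis) in the 4 fraction groups (horizontal axis). Dots mark changes past both limits and grey cells were not tested. Tnfsf15 was called in all 4 comparisons, and Havcr2 in 3.

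CD40 signals through TRAF adapters to the noncanonical NF-kappaB route, and 10 genes were listed for it. With RNY1+/+ EVFx 6 of 10 were called higher than PBS and 0 lower (8.24% and 8.2% of all genes), and with RNY1-/- EVFx 4 and 0 (9.02% and 13.5%). With RNY1+/+ ProteinFx 2 were higher and 1 lower (8.96% and 12.4%), and with RNY1-/- ProteinFx 1 of 9 was higher and 1 lower (6.31% and 7.99%). The median log2 fold changes of the list were 1.39, 0.66, 0.34 and 0.25 in that order. Traf1 was 67.1 ± 5.87 CPM in RNY1+/+ EVFx against 5.25 ± 1.58 CPM in PBS (log2 fold change 3.86, standard error 0.18), and 13.9 ± 5.16 CPM in RNY1+/+ ProteinFx. Birc3, an inhibitor of apoptosis bound to TRAF2, rose by 2.81 in RNY1+/+ EVFx and 2.11 in RNY1+/+ ProteinFx. Map3k14, the kinase NIK of this route, fell by 1.05 in RNY1+/+ ProteinFx and by 1.19 in RNY1-/- ProteinFx. Between fractions with RNY1+/+, 5 of 10 were called lower with ProteinFx and 0 higher, where 6.82% and 6.71% of all genes were, among them Nfkb2 (-1.83), Traf2 (-1.74) and Traf1 (-2.23). Traf2, at 2.92 CPM with RNY1+/+ ProteinFx, passed the 3 CPM filter there only through EVFx. With ProteinFx, Traf1 was called lower with RNY1-/- than with RNY1+/+ (-1.01, edgeR adjusted p = 0.0459). Between genotypes with EVFx, Nfkb2 (-1.17, edgeR adjusted p = 0.000344) and Traf2 (-1.10, edgeR adjusted p = 0.000618) were called lower with RNY1-/-, 2 of 10 where 2.35% of all genes were called in either direction.

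Around CD38, the list of 9 enzymes and receptors of NAD and extracellular adenosine had 5 or 6 members above the filter. Nampt, the rate-limiting enzyme of NAD salvage, rose in all 4 groups, from 280.2 ± 72.5 CPM in PBS to 1145 ± 152 in RNY1+/+ EVFx, 1669 ± 237 in RNY1-/- EVFx, 1132 ± 115 in RNY1+/+ ProteinFx and 986 ± 217 in RNY1-/- ProteinFx. Entpd1, which encodes the ectoenzyme CD39, fell with EVFx, from 97.8 ± 7.82 CPM in PBS to 17.9 ± 2.26 with RNY1+/+ and 19.3 ± 4.69 with RNY1-/-, and was 43.9 ± 6.70 with RNY1+/+ ProteinFx (-0.99, past the p limit and not the fold limit). Bst1, a CD38 relative, rose in 3 groups, by 1.51 in RNY1+/+ EVFx, 1.78 in RNY1-/- EVFx and 1.57 in RNY1+/+ ProteinFx. The adenosine receptor gene Adora2b rose in the same 3 groups, from 2.56 ± 0.348 CPM in PBS to 7.92 ± 1.58 in RNY1+/+ EVFx. Adora2a, at 0.0898 ± 0.106 CPM in PBS, was 5.98 ± 2.61 CPM in RNY1+/+ EVFx and 1.42 ± 0.669 in RNY1-/- EVFx. In all, 4 of 6 were called higher and 1 lower in RNY1+/+ EVFx (8.24% and 8.2% of all genes), 3 of 5 and 1 in RNY1-/- EVFx (9.02% and 13.5%), 3 of 5 and 0 in RNY1+/+ ProteinFx (8.96% and 12.4%), and 1 of 5 and 0 in RNY1-/- ProteinFx (6.31% and 7.99%). Adora2b was called lower with RNY1-/- than RNY1+/+ ProteinFx (-1.03, edgeR adjusted p = 0.0207), and Adora2a with RNY1-/- than RNY1+/+ EVFx (-1.98, edgeR adjusted p = 0.00111). Adora2a passed the 3 CPM filter only through RNY1+/+ EVFx, both there and against PBS, and was not tested in RNY1-/- EVFx against PBS. Against PBS, Adora2b passed the filter only through the fraction groups.

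Of 16 genes of interferon-gamma and interleukin-4 signalling and of PD-L1 stability, 15 were tested. The counts called higher and lower than PBS were 4 and 0 in RNY1+/+ EVFx (8.24% and 8.2% of all genes), 4 and 2 in RNY1-/- EVFx (9.02% and 13.5%), 5 and 2 in RNY1+/+ ProteinFx (8.96% and 12.4%) and 5 and 0 in RNY1-/- ProteinFx (6.31% and 7.99%). Jak2 and Stat2, a kinase and a transducer of interferon receptors, rose in all 4 groups, by 2.096 to 2.65 and by 1.93 to 2.36 on the log2 scale. Irf1 rose by 1.12 in RNY1-/- EVFx to 1.72 in RNY1-/- ProteinFx. Stat6, the interleukin-4 transducer, fell by 1.55 in RNY1+/+ ProteinFx and by 1.58 in RNY1-/- EVFx, with a wide spread in PBS (37.1 ± 17.3 CPM).

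The T cell partners of these ligands were near 0 except for Cd28. Pdcd1 and Cd40lg had 0 counts over the 20 libraries, Ctla4 had 1 and Icos 5. Cd28, the receptor for CD80 and CD86, had 309, 325, 409 and 330.1 CPM in the PBS libraries, while Cd3e, Cd3d, Cd3g, Trac, Cd8a and Lck were each at or under 3 counts in every library. Cd4, the remaining marker of the T cell list, was 0 to 9.02 CPM over the 20 libraries. The 8 T cell markers, Cd28 among them, summed to 319 to 412 CPM in PBS and to 24.1 to 148 CPM in the fraction groups. Cd28 averaged 29.6 ± 2.65 CPM in RNY1+/+ EVFx, 44.8 ± 6.80 in RNY1-/- EVFx, 38.8 ± 11.2 in RNY1+/+ ProteinFx and 119 ± 29.6 in RNY1-/- ProteinFx, where replicates 1 and 2 (144 and 143) again lay above 3 and 4 (84.9 and 104). Its fall from PBS was called in all 4, from -3.36 in RNY1+/+ EVFx to -1.46 in RNY1-/- ProteinFx. It was called higher with RNY1-/- than RNY1+/+ ProteinFx (1.55, standard error 0.21, edgeR adjusted p = 0.000881). The counts come from 3′ ends, and which Cd28 transcript they belong to was not tested.

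The genes whose pattern over the 20 libraries was most like that of a member were found by Pearson's r of log2 CPM among 7551 genes with a mean of at least 10 CPM. The libraries share treatments and the PBS group, so r is high for many genes and is given as a description. Herc6 (0.995), Slc31a2 (0.993) and Adgre1 (0.987) were nearest to Cd274. Gbp9 (0.985), Ms4a6b (0.984) and Mocs2 (0.978) were nearest to Cd86, and Batf (0.983), Slc11a2 (0.977) and Fabp3 (0.976) to Cd40. Epsti1 (0.994), Slc31a2 (0.990) and Slc31a1 (0.990) were nearest to Cd69, and Ctsc, Cp and Slco3a1 (0.984 each) to Cd38. Ifi208 (0.995), Gbp7 (0.993) and Ifi47 (0.992) were nearest to Fgl2, and Sidt2 (0.975), Atraid (0.966) and Ndufv3 (0.965) to Vsir. Slc31a2 was the 1 gene named for more than 1 member.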

How the data were processed

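RNA was read by 3′-end sequencing with unique molecular identifiers (UMIs). Per the submitters' notes and the study's methods, reads were filtered with fastp 0.24.0, aligned with STAR 2.7.11 to GRCm39 and counted per gene by strand with featureCounts (Subread 2.1.1), reads with several alignments adding fractions to each gene. The annotation release is not given in the sources used here. The authors deposited these estimated counts, not normalized, and CPM, which they computed as count over the library total. Counts were rounded here, since 23.6% to 26.3% of detected genes had fractions.

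Each comparison used 8 libraries, edgeR 4.0.16 (glmQLFit, glmQLFTest, TMM), edgeR's filterByExpr, and a 3 CPM minimum on the mean. Standard errors were derived by dividing each log2 fold change by the root of its F statistic. Folds are on the TMM scale, and CPM on the total count. DESeq2 1.42.0, limma 3.58.1, R 4.3.3 and python 3.11.15 were also used. The test was tried on simulated data. Depth limits a gene to a floor of 3 counts per library, and intervals of ratios cover counting error only.

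The 10 genes and the lists were chosen with earlier results of these data known. Named besides the 10 are, per list and comparison, at most the 4 called genes with the largest change, and the 3 nearest in pattern to each of the 10 genes with a mean of at least 10 CPM. Same-numbered libraries deviated together, with every r over 0.1, in RNY1-/- EVFx against PBS (0.129 to 0.381) and RNY1-/- ProteinFx against RNY1-/- EVFx (0.218 to 0.399). The other 6 comparisons each held an r under 0.1. In RNY1-/- ProteinFx against PBS, r was 0.511, 0.623, 0.641 and 0.018 for replicates 1 to 4. Transcript GC content and length (GENCODE, GRCm38) were fitted by splines (4 degrees of freedom) within a library. Alternatives were DESeq2, other scalings, filters and fits, thinned counts, a replicate block, each library left out in turn and, chosen after seeing the data, either pair of RNY1-/- ProteinFx.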

Additional observations from a re-analysis of the deposited data

Results flagged for a closer look

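In 50 groups of 4 libraries, 2 held a library far from the others by Dixon's test, which by chance flags about 1 in 20. Pdcd1lg2 was 8.77 CPM in RNY1-/- ProteinFx replicate 3, where the next library had 4.15 CPM. Cd80 was 12.1 CPM in PBS replicate 3, where the next had 7.42 CPM.

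The genotype effect differed between ProteinFx and EVFx in the interaction test of edgeR. The difference on the log2 scale was -0.96 for Cd274, 0.84 for Vsir, -1.003 for Cd86, -1.46 for Cd38 and -1.93 for Cd69, with the adjusted p-values given for them in the report.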

How the results depend on the processing

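The counts of the 10 genes called stayed within 1.5 times their value under 101 of 106 alternatives that leave no single library out. The 5 exceptions were the adjusted p with no fold limit, which gave 3 genes between the EVFx genotypes in place of 0, 6 between the ProteinFx genotypes in place of 2, 8 between the RNY1+/+ fractions in place of 4 and 8 between the RNY1-/- fractions in place of 3, and scaling to total counts, which gave 5 between the RNY1-/- fractions. Leaving out 1 library gave 6 to 7 genes in RNY1+/+ EVFx against PBS, 7 in RNY1+/+ ProteinFx and RNY1-/- EVFx, 6 to 7 in RNY1-/- ProteinFx, 3 to 4 between the RNY1+/+ fractions, 2 to 4 between the RNY1-/- fractions, 0 and 2 between the genotypes with EVFx and ProteinFx, and 5 to 6 in the interaction.

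The log2 fold changes below turned sign. As reported, Cd69 between the RNY1+/+ fractions was past the p limit and the others were not. With GC content and length trends removed, alone and then with the replicate block, Cd80 was -0.042 and -0.029 in RNY1+/+ ProteinFx against PBS and -0.033 and -0.018 in RNY1-/- EVFx against PBS. Between the EVFx genotypes Cd69 was -0.30 and -0.29 (edgeR adjusted p = 0.0103 with the block), Fgl2 -0.30 and -0.35 (edgeR adjusted p = 0.00120 with the block), and Vsir 0.029 and 0.030. Between the RNY1+/+ fractions Cd69 was -0.068 and -0.045, and Cd274 -0.00015 without the block. The interaction of Pdcd1lg2 was -0.032 and -0.030. Fgl2 between the EVFx genotypes was also -0.041 with total counts, -0.012 with no filter and -0.011 with the replicate block. Pdcd1lg2 between the ProteinFx genotypes was 0.023 with DESeq2, 0.093 with total counts, 0.023 with no filter, 0.14 with thinned counts, 0.0091 with the replicate block and 0.38 without RNY1-/- ProteinFx replicates 1 and 2. Without replicates 3 and 4 of that group, Cd80 was -0.055 between the ProteinFx genotypes and -0.023 between the RNY1-/- fractions. Leaving out 1 library gave -0.26 to 0.054 for Cd80 in RNY1+/+ EVFx against PBS, -0.23 to 0.21 for Fgl2 between the EVFx genotypes, -0.28 to 0.13 for Pdcd1lg2 between the ProteinFx genotypes and -0.10 to 0.30 for its interaction. The cause of these was not tested.

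The replicate block changed no count of the genes called. It took the adjusted p of Vsir between the ProteinFx genotypes to 0.0578 and that of Cd274 between the EVFx genotypes to 0.00585, in comparisons whose libraries share only a number. The interaction of Cd40 passed the p limit with DESeq2 (-0.58, adjusted p = 0.0397), with GC trends removed and the block (-0.64, edgeR adjusted p = 0.0482), without RNY1+/+ EVFx replicate 2 (-0.63, 0.0492), RNY1-/- EVFx replicate 3 (-0.63, 0.0444) or RNY1-/- ProteinFx replicate 3 (-0.66, 0.0204), and without RNY1-/- ProteinFx replicates 3 and 4 (-0.51, 0.0406). That of Cd80 passed without RNY1-/- ProteinFx replicates 3 and 4 (-0.60, edgeR adjusted p = 0.0279).

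Over all genes, the number called between the EVFx genotypes was 243 and ranged from 88, with GC trends removed and the block, to 628 with no filter, and was 99 without RNY1+/+ EVFx replicate 4. Between the ProteinFx genotypes it was 191, with 326 at no filter, 116 without RNY1+/+ ProteinFx replicate 4 and 405 without RNY1-/- ProteinFx replicates 3 and 4, which also took RNY1-/- ProteinFx against PBS from 1552 to 920. The interaction passed for 3448 genes, and for 350 and 5666 without the pairs 1 and 2 or 3 and 4. Total counts took the median log2 fold change of all genes from -0.03 to -0.27 in RNY1-/- EVFx against PBS, its largest move, and the share of higher calls there from 40.0% to 24.6%, in RNY1+/+ EVFx from 50.1% to 37.6% and in RNY1+/+ ProteinFx from 42.0% to 29.5%, while that share went from 36.1% to 50.5% between the ProteinFx genotypes and from 53.7% to 68.8% between the RNY1-/- fractions. Depth limits Icosl and Pdcd1lg2, which had 5 to 88 counts per group.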
